A study of Mus musculus with 38 samples.

Results

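The DNA replication and G1/S genes are 42 genes that license origins, open and copy DNA, supply nucleotides and drive entry into S phase. They were chosen by name: a probe belonged to the set if the gene name in the scanner files was a member's symbol or an older synonym of it. All 42 were measured, by 59 of the 41174 probes, and they make up 42 of the 28783 genes on the arrays. Of these, 27 had 1 probe and 15 had several. Rfc1 and Gins2 were found only under synonyms of the RefSeq table (Recc1 and 4833427B12Rik). The rule used names alone, but the members were chosen with earlier results of these data known.

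Gene expression was measured in the MMTV-PyMT model on 38 Agilent two-color arrays, with the sample in Cy5 and Universal mouse reference RNA in Cy3. Each value is a log2 ratio of sample to that reference RNA, not an absolute amount. The progression experiment held 5 adenomas (5 weeks after transplantation), 6 carcinomas (18 weeks), 6 samples of disseminated cells from lungs of mice with 18-week outgrowths, and 5 samples of lung metastases. Each disseminated sample pooled the lungs of 3 to 6 mice, and metastases were collected typically 8 to 10 weeks after the 18-week primary tumor had been removed. The chemotherapy experiment held 6 untreated tumors, 6 residual tumors taken 10 days after dose 1 of docetaxel, doxorubicin and cyclophosphamide, and 4 relapsed tumors taken 10 days after dose 4. Treatment started 2 months after transplantation, with 21 days between doses. The deposited labels call these last groups regressed and resistant, and the age of the untreated tumors at harvest is not given in the sources used here. Every group, controls included, descended from hyperplasias of female mice that carried both MMTV-PyMT and actin-GFP, transplanted into FVB/n hosts. All hosts and donors were of the FVB/n strain. PyMT, the polyoma middle T oncogene, is driven by the mouse mammary tumor virus promoter, which acts mainly in mammary epithelium. GFP is driven by a broadly active promoter, so it marks cells of donor origin of any type, and GFP-positive cells were sorted for the arrays. The host keeps its own immune cells. Apart from the disseminated samples, the sources used here do not say whether a sample came from 1 mouse, so p-values measure the spread between these samples.

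As background, a cell prepares for S phase by loading the MCM helicase on origins that the origin recognition complex marks, with the help of Cdc6 and Cdt1. Cdc45, the GINS complex and Mcm10 then turn the loaded helicase into a working fork. The clamp loader places PCNA, polymerases alpha, delta and epsilon copy the strands, RPA protects single-stranded DNA, and Fen1 and DNA ligase 1 finish the lagging strand. Many of these genes are targets of the E2F factors, which cyclin E and its kinase release from the retinoblastoma protein at the G1/S boundary. Their transcripts are therefore used as a measure of proliferation in tumors.

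Because E2F factors are known to act on many of these genes, the promoters were searched for 4 words of 8 bases, TTTCCCGC, TTTCGCGC, TTTGCCGC and TTTGGCGC, on both strands. RefSeq promoters of build GRCm38.p6, from 250 bases before to 50 bases after a start, were at hand for 35 of the 42 genes, as 40 promoters. The genes without one were Mcm4, Gins1, Gins2, Rfc2, Prim2, Pole and Ccne2. Of the 40 promoters, 12 (30%) held a word, as did 744 of all 32851 promoters (2.26%). The genes with a word were Cdc6, Cdt1, Lig1, Mcm3, Mcm5, Mcm6, Mcm7, Orc1, Pola1, Pold1, Pole2 and Rfc3. CCAAT, searched on both strands, stood in 22 of the 40 promoters (55%) and in 37.4% of all. Words can overlap on opposite strands, and a match is a description of the letters, not a binding site. Mcm6 held 3 words, and Mcm3, Mcm5, Rfc3 and 1 of the promoters of Mcm7 held 2. Of these, Mcm3, Mcm5 and Mcm6 are printed as helicase subunits, and Pold1 as a gene described in detail later. Chaf1b had the lowest log2 change of the 42 genes over all comparisons. Pcna was the only member called higher, by the rule given below, in metastases against both primary stages. Neither Chaf1b nor Pcna held a word. Sequences run 5' to 3' on the gene's strand, with E2F words in capitals.
Mcm3 promoter, chr1:20820263-20820562, minus strand: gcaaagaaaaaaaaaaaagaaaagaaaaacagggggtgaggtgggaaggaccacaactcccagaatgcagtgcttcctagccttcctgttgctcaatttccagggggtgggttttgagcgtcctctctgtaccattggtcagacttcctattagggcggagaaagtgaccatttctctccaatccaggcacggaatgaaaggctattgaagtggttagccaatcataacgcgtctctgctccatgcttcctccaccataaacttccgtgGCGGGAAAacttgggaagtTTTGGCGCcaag
Mcm5 promoter, chr8:75109259-75109558, plus strand: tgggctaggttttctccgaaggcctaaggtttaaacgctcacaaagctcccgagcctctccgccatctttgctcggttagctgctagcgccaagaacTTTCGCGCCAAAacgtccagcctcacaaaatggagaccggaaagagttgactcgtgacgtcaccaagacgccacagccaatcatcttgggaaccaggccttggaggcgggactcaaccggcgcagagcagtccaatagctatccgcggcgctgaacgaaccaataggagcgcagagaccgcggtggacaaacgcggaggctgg
Mcm6 promoter, chr1:128359656-128359955, minus strand: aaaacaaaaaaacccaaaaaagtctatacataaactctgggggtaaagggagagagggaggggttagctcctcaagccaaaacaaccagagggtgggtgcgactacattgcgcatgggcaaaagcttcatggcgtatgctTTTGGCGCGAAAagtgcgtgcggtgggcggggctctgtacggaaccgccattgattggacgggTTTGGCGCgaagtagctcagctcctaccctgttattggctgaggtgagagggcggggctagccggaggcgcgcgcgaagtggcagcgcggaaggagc
Pold1 promoter, chr7:44548766-44549065, minus strand: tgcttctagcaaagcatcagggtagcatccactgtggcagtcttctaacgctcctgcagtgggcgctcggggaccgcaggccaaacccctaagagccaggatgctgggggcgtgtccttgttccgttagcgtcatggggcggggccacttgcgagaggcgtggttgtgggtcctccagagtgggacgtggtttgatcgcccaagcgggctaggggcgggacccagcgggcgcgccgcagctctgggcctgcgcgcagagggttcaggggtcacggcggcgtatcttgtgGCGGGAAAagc
Chaf1b promoter, chr16:93883651-93883950, plus strand: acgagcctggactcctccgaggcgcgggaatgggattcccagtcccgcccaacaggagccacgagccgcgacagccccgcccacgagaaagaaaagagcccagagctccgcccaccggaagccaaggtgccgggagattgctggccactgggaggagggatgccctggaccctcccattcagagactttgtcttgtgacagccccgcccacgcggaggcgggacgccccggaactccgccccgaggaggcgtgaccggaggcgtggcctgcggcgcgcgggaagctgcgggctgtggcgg
Pcna promoter, chr2:132253131-132253430, minus strand: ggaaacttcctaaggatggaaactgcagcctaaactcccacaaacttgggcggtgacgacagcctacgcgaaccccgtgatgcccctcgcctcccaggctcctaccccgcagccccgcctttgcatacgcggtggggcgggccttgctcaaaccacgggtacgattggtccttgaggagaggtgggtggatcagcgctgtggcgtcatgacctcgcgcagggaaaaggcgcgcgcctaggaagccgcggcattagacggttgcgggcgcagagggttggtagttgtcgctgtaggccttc

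The sample channel was well above background at 48.4 to 78.9% of spots per array, and the lowest shares in the progression experiment were those of adenomas 3 (51.1%) and 4 (48.4%). Between 39 and 42 of the 42 genes were well above background on each array. In progression, Cdc45 and Pola2 were dim most often, each on 3 of 5 adenoma arrays above background. Carcinoma 6 stood apart from its group (median correlation with the other carcinomas 0.76), with a mean log2 ratio of 5.01 over 14 macrophage genes, against -0.38 to 0.86 in the other carcinomas. That mean was 0.04 to 0.64 in adenomas, 3.38 to 5.13 in disseminated cells and 0.87 to 5.18 in metastases. Krt8, a keratin of luminal epithelium, ranged from 2.47 to 3.66 in adenomas but from -1.66 to 4.23 in disseminated cells, and the lowest Krt18 value there was -2.82. In metastases the lowest values were -1.49 for Krt8 and -3.59 for Krt18, with medians of 4.16 and 1.57. So the lowest values of both keratins were below the reference in disseminated cells and in metastases. The mean over 12 mammary epithelial genes was 0.59 in metastasis 4 and 3.24 to 4.30 in the other metastases. It ran from 0.37 to 3.41 in disseminated cells. Sftpc, a surfactant gene of the lung, reached 5.68 in disseminated cells (median 5.40) and ran from 4.87 to 6.54 in metastases and from 0.39 to 4.62 in adenomas. Carcinomas and metastases shared slides and a scan day, as did adenomas and disseminated cells. In the other 4 progression comparisons, scan day and slide cannot be told apart from group.

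The replication genes were highest in adenomas. The mean log2 ratio over the 42 genes was -1.31 ± 0.25 (SD, n = 5) in adenomas, -1.75 ± 0.18 (n = 6) in carcinomas, -2.03 ± 0.23 (n = 6) in disseminated cells and -2.05 ± 0.30 (n = 5) in metastases. The 5 adenoma arrays were at -1.53, -1.50, -0.99, -1.43 and -1.11, and the 5 metastasis arrays at -1.90, -2.33, -1.96, -2.39 and -1.66. The carcinoma arrays ran from -2.04 to -1.51 (median -1.75) and those of disseminated cells from -2.47 to -1.81 (median -1.96). All disseminated and all metastasis arrays lay below all adenoma arrays, while carcinomas overlapped adenomas at their upper end. Adenomas had the highest group mean for 32 of the 42 genes, carcinomas for 6, metastases for 3 and disseminated cells for 1. In bulk samples such as these, fewer cycling cells, less RNA per cell and a different mix of cell types cannot be told apart.

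**Figure D1:**
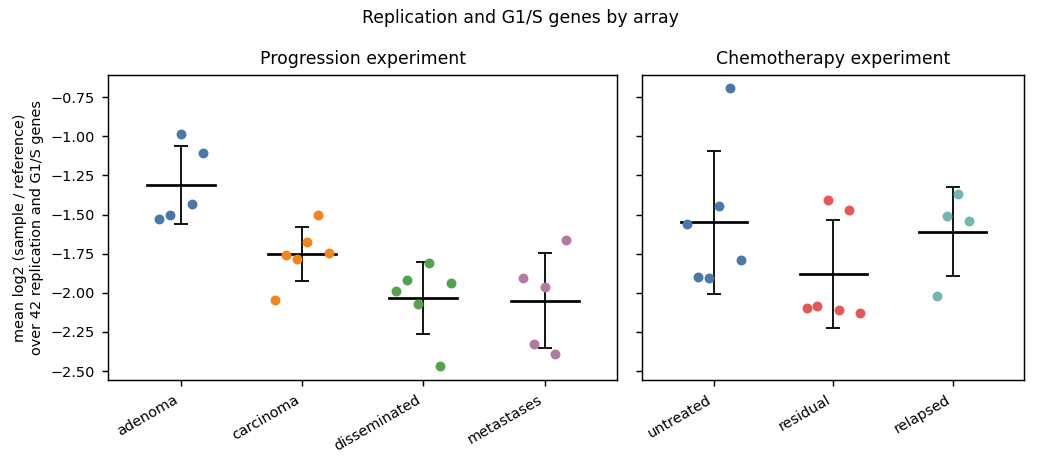
Mean log2 ratio of sample to reference over the 42 replication and G1/S genes, 1 point per array, with group mean (bar) and SD (whiskers), for the progression experiment (left) and the chemotherapy experiment (right). The 5 adenomas sit between -1.53 and -0.99, above all disseminated and metastasis arrays, and the residual tumors reach down to -2.13.

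A gene was called changed when limma's moderated test gave a Benjamini-Hochberg adjusted p below 0.05 over all 28783 genes and the change was at least 2-fold. Against adenomas, 12 of 42 genes fell and 0 rose in disseminated cells, where 5.84% of all genes fell and 4.65% rose. In metastases 14 fell and 1 rose (all genes: 8.51% fell, 6.08% rose), and in carcinomas 5 fell and 0 rose (all genes: 2.14% fell, 1.16% rose). These 3 comparisons share the adenoma arrays. The median log2 change of the 42 genes was -0.77 in disseminated cells, -0.80 in metastases and -0.52 in carcinomas, beside medians over all genes of -0.01, 0.02 and 0.07. In the same order, 39, 36 and 35 of the 42 changes were below 0, as were 51.4, 47.9 and 39.6% of those of all genes. Adenoma 3 mattered for 2 of these counts: without it 5 genes were called in disseminated cells and 0 in carcinomas, whereas 15 were called in metastases. The medians without it were -0.65, -0.41 and -0.70.

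From carcinomas to metastases 5 genes fell and 1 rose (all genes: 5.34% fell, 4.74% rose), with a median of -0.25 beside -0.05 over all genes. From carcinomas to disseminated cells 5 fell and 0 rose (all genes: 6.12% fell, 5.48% rose), with a median of -0.29 beside -0.07.  Without carcinoma 6, the counts of called genes were 6 and 6. Between metastases and disseminated cells 2 genes rose and 2 fell (all genes: 3.44% rose, 3.67% fell), with a median of 0.01. In this last comparison 2 genes were called without disseminated sample 2, 3, 4 or 5, or without metastasis 2 or 5. In disseminated cells against adenomas, leaving out disseminated sample 5 gave 7 calls. In carcinomas against adenomas, 3 were called without adenoma 5, carcinoma 1 or carcinoma 3.

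**Figure D2:**
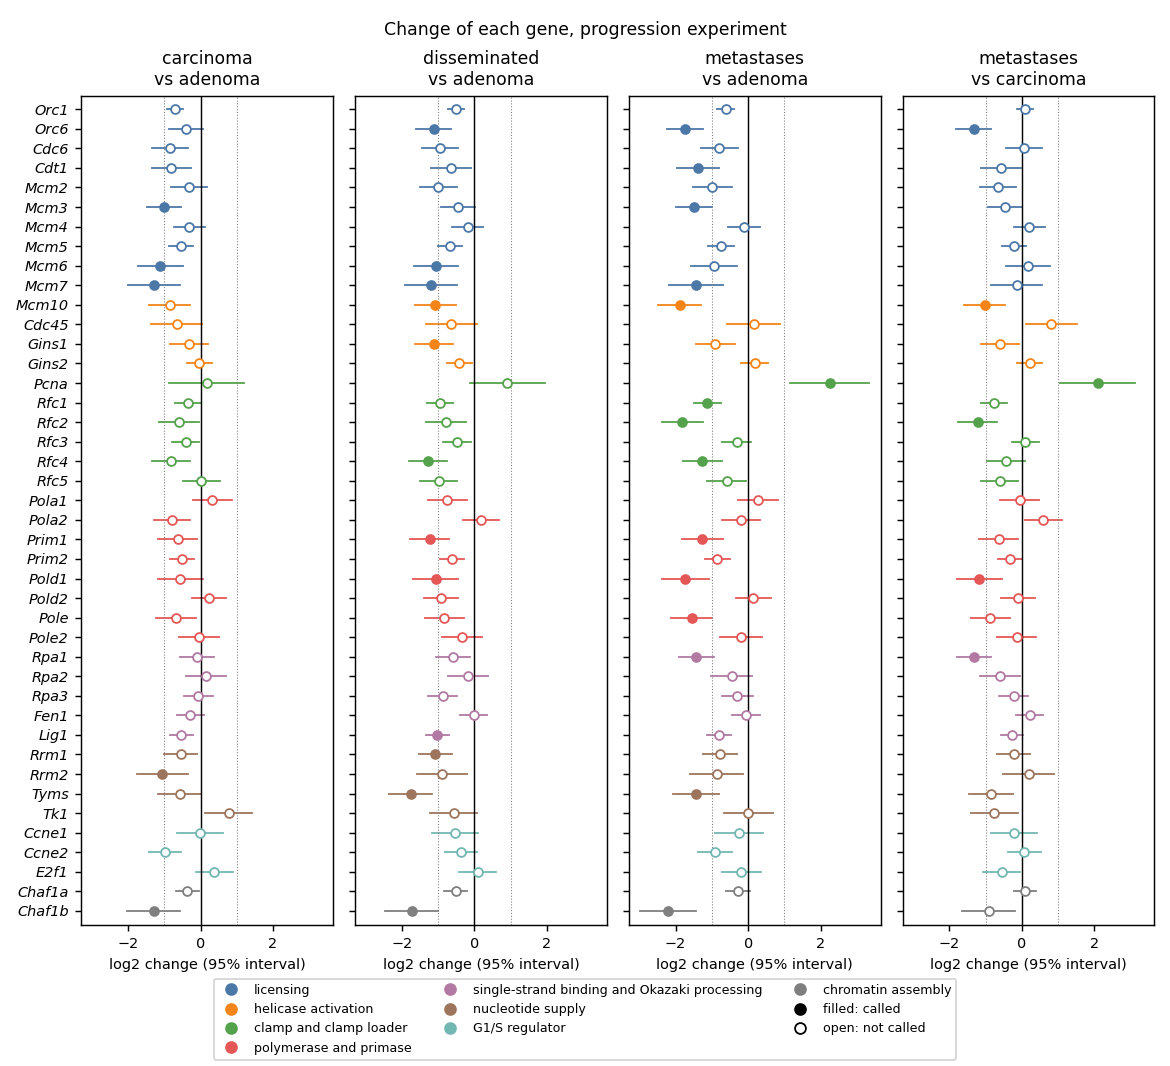
Log2 change of each of the 42 genes with its 95% interval in 4 comparisons of the progression experiment, colored by role; filled points are called, and dotted lines mark a 2-fold change. Most points lie left of 0 in the 3 comparisons with adenomas, and Pcna lies at 2.25 in metastases against adenomas.

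Of the 10 licensing genes, 3 fell in carcinomas, 3 in disseminated cells and 4 in metastases against adenomas, and 1 fell from carcinomas to metastases. Orc6, the smallest subunit of the origin recognition complex, had calls in 3 comparisons. It was at -1.09, -1.19, -0.92, -0.89 and -0.74 in adenomas and at -2.37, -2.77, -2.84, -3.36 and -2.18 in metastases. Carcinomas ran from -1.89 to -1.09 (median -1.31) and disseminated cells from -2.68 to -1.38 (median -2.20). Both lung groups lay wholly below the adenomas, and the metastases wholly below the carcinomas. Orc6 fell 3.34-fold in metastases against adenomas (log2 change -1.74 ± 0.24 SE, adjusted p = 5.02e-05), 2.18-fold in disseminated cells against adenomas (adjusted p = 0.00277) and 2.52-fold in metastases against carcinomas (adjusted p = 0.000684). Within the 3 slides that held both groups, Orc6 in metastases minus carcinomas was -1.33, -1.46 and -1.25.

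Of the 6 subunits of the MCM helicase, Mcm3, Mcm6 and Mcm7 fell in carcinomas against adenomas, with log2 changes of -1.02, -1.11 and -1.29. The log2 changes of Mcm4 lay between -0.32 and 0.20 over the 6 comparisons. Mcm7 was at -1.75, -1.69, -0.64, -0.90 and -1.17 in adenomas and between -3.19 and -2.02 (median -2.48) in carcinomas. The groups did not overlap, but without adenoma 3 none of these 3 genes was called in carcinomas (log2 changes -0.91, -0.91 and -1.14 for Mcm3, Mcm6 and Mcm7). Mcm3 was also under 2-fold there without adenoma 4 or 5 or carcinoma 1, 2 or 3. Mcm6 and Mcm7 also fell in disseminated cells against adenomas. That call of Mcm6 was lost without adenoma 3 or 5 or disseminated sample 3 or 5 (log2 changes -0.98 to -0.85), and that of Mcm7 without adenoma 3 (-1.05, adjusted p = 0.0541). Mcm3 fell 2.07-fold in metastases against disseminated cells (adjusted p = 0.00446), with values of -3.27, -4.22, -3.38, -3.26 and -3.01 against -2.97 to -1.97, so that these groups did not overlap either. It was under 2-fold without disseminated sample 2 (-0.97) or metastasis 2 (-0.85). A dimmer probe of Mcm3, above background on all 22 arrays, gave a log2 change of 0.18 in that comparison. In metastases against adenomas it gave 0.20, where the brighter probe gave -1.49. In carcinomas against adenomas it gave -0.17 beside the -1.02 of the brighter probe. Cdt1, which helps to load the helicase, fell 2.61-fold in metastases against adenomas (log2 change -1.39, adjusted p = 0.000974).

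Of the 4 genes of helicase activation, 2 fell in disseminated cells and 1 in metastases against adenomas. Mcm10, which helps to start the fork, was at -1.32, -1.41, -0.32, -0.84 and -0.57 in adenomas and at -2.63, -3.22, -2.90, -3.13 and -2.01 in metastases. It ran from -1.92 to -1.55 (median -1.81) in carcinomas and from -2.73 to -1.05 (median -2.11) in disseminated cells. Metastases lay below all adenomas and all carcinomas, while disseminated cells overlapped both. Mcm10 fell 3.69-fold in metastases against adenomas (log2 change -1.88 ± 0.28 SE, adjusted p = 0.000103) and 2.04-fold against carcinomas (adjusted p = 0.0108). Against carcinomas the change was under 2-fold without metastasis 2, 3 or 4 or carcinoma 4 or 5 (log2 changes between -0.99 and -0.92, and -0.997 without metastasis 3). In disseminated cells against adenomas it fell 2.12-fold (adjusted p = 0.00898), but the log2 change was -0.94 without adenoma 3 and -0.93 without disseminated sample 6, under 2-fold. Gins1, a subunit of GINS, fell in disseminated cells (log2 change -1.11), by under 2-fold without adenoma 3 (-0.98) or disseminated sample 5 (-0.99). Cdc45 and Gins2 had no call.

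In metastases against adenomas, some subunits of the clamp loader fell and the clamp itself rose. Of the 5 measured clamp loader subunits, Rfc1, Rfc2 and Rfc4 fell in metastases against adenomas, Rfc4 in disseminated cells against adenomas, and Rfc5 in disseminated cells against carcinomas. Rfc1 was at -0.99 without metastasis 4, and Rfc5 between -0.996 and -0.90 without carcinoma 2, 3, 4 or 5 or disseminated sample 3 or 5, all under 2-fold. Rfc2 was at -1.51, -1.36, -0.38, -0.89 and -0.87 in adenomas and at -2.70, -3.09, -2.82, -3.12 and -2.35 in metastases. It ran from -1.89 to -1.30 (median -1.56) in carcinomas and from -2.64 to -1.16 (median -1.73) in disseminated cells. Metastases lay below all adenomas and carcinomas, and Rfc2 fell 3.51-fold and 2.33-fold against them (adjusted p = 0.0001 and 0.00293). The other, dimmer probe of Rfc2 gave -0.49 and -0.55 for the same comparisons, and -0.07 in metastases against disseminated cells, where the brighter probe gave -1.02. That last call was lost without disseminated sample 2, 3 or 4 or metastasis 2 or 4 (log2 changes -0.96 to -0.90).

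Pcna, the sliding clamp, was the only member called higher in metastases against adenomas or carcinomas. It was at -2.37, -2.31, -1.95, -2.18 and -2.43 in adenomas and at 0.13, -0.26, 0.28, 0.87 and -0.99 in metastases. In carcinomas 5 arrays lay between -2.88 and -2.32 and carcinoma 6 stood at 0.23, and disseminated cells ran from -2.49 to 0.10 (median -1.20). Adenomas and metastases did not overlap, and carcinomas overlapped metastases through carcinoma 6 alone. Pcna rose 4.76-fold in metastases against adenomas (log2 change 2.25 ± 0.52 SE, adjusted p = 0.00329) and 4.25-fold against carcinomas (log2 change 2.09 ± 0.50 SE, adjusted p = 0.00604). Without carcinoma 6 the latter log2 change was 2.55. The gene had 1 probe, printed in 10 spots on each array, and the spots of an array differed by an SD of at most 0.08 on the log2 scale. In disseminated cells against adenomas the log2 change was 0.91 (95% interval -0.13 to 1.96, adjusted p = 0.208).

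**Figure D3:**
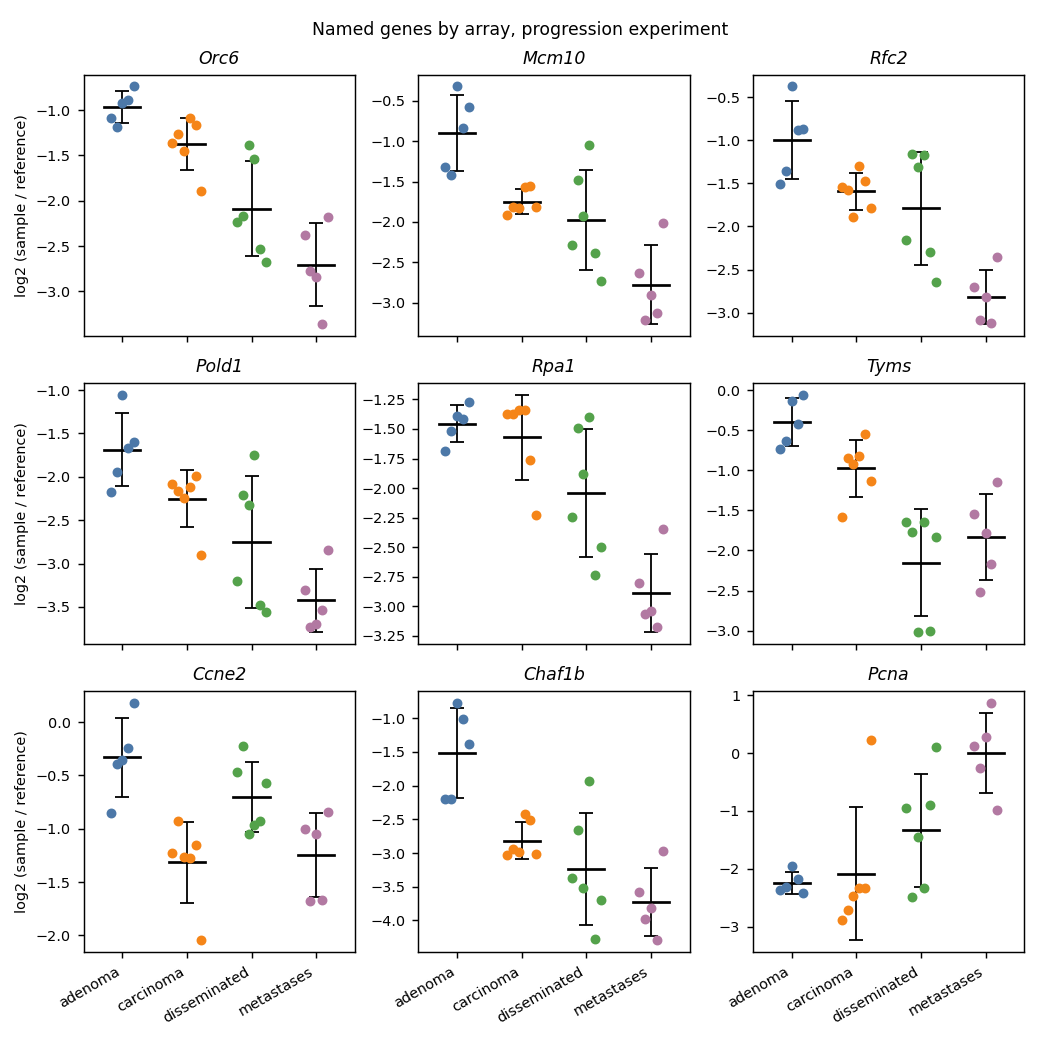
Log2 ratio of sample to reference on each array of the progression experiment for 8 genes, 1 from each role, and for Pcna, with group mean (bar) and SD (whiskers); vertical scales differ between panels. Metastases lie below carcinomas for Orc6, Mcm10, Rfc2 and Rpa1, and above them for Pcna apart from carcinoma 6 at 0.23.

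Of the 8 polymerase and primase genes, 2 fell in disseminated cells and 3 in metastases against adenomas. Pold1, the catalytic subunit of polymerase delta, was at -2.17, -1.94, -1.05, -1.67 and -1.60 in adenomas and at -3.31, -3.73, -3.70, -3.54 and -2.85 in metastases. It ran from -2.90 to -1.99 (median -2.14) in carcinomas and from -3.56 to -1.75 (median -2.76) in disseminated cells. Metastases lay below all adenomas, and carcinoma 6 at -2.90 overlapped them. Pold1 fell 3.34-fold against adenomas (adjusted p = 0.000429) and 2.25-fold against carcinomas (adjusted p = 0.00835), and its other probe gave log2 changes of -1.56 and -1.07 beside -1.74 and -1.17. In disseminated cells against adenomas its fall was under 2-fold without adenoma 3 or disseminated sample 1, 5 or 6 (log2 changes -0.98 to -0.90). Pole, the catalytic subunit of polymerase epsilon, and Prim1, the primase, fell in metastases against adenomas as well (log2 changes -1.56 and -1.26). Pold2, the accessory subunit of polymerase delta, and Pola1, the catalytic subunit of polymerase alpha, were called higher in metastases than in disseminated cells. Pold2 was at -0.46, -0.45, -0.24, -0.37 and 0.26 in metastases and ran from -1.88 to -0.75 (median -1.30) in disseminated cells. Pola1 was at -0.92, -1.37, -1.07, -0.84 and 0.41 in metastases and ran from -2.10 to -1.38 (median -1.81) in disseminated cells. For both genes the groups did not overlap, and Pold2 was 2.10-fold and Pola1 2.02-fold higher in metastases (adjusted p = 0.00388 and 0.0124). Pold2 was under 2-fold without disseminated sample 3 or 5 or metastasis 5 (log2 changes 0.94 to 0.99), and Pola1 without disseminated sample 4, 5 or 6 or metastasis 5 (0.72 to 0.996). Both fell in disseminated cells against carcinomas, by 1.17 and 1.07 on the log2 scale.

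Among the 5 genes of single-strand binding and Okazaki fragment processing, Lig1 fell in disseminated cells against adenomas (log2 change -1.02, adjusted p = 0.000313) and Rpa1 fell in metastases. Rpa1, the large subunit of RPA, was at -1.69, -1.51, -1.39, -1.42 and -1.28 in adenomas and at -2.81, -3.07, -3.04, -3.17 and -2.35 in metastases. It ran from -2.22 to -1.34 (median -1.37) in carcinomas and from -2.73 to -1.40 (median -2.06) in disseminated cells. Metastases lay below both primary stages, which overlapped each other, and Rpa1 fell 2.70-fold against adenomas (adjusted p = 0.000213) and 2.49-fold against carcinomas (adjusted p = 0.000664). Within the 3 slides the difference from carcinomas was -1.34, -1.63 and -1.08. The fall of Lig1 was under 2-fold without adenoma 3 (-0.97), adenoma 5 (-0.98) or disseminated sample 5 (-0.96). Rpa2, Rpa3 and Fen1, the flap nuclease, had no call. The other probe of Rpa2, above background on all 22 arrays, gave log2 changes of -1.18 in metastases against adenomas and -0.95 against carcinomas, beside -0.46 and -0.60 for the probe that stood for the gene.

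All 4 genes of nucleotide supply had at least 1 call. Tyms, thymidylate synthase, was at -0.73, -0.64, -0.14, -0.42 and -0.05 in adenomas and at -1.55, -2.52, -1.78, -2.17 and -1.14 in metastases. It ran from -1.58 to -0.54 (median -0.89) in carcinomas and from -3.02 to -1.65 (median -1.80) in disseminated cells. Disseminated cells lay below all adenomas and all carcinomas, and Tyms fell 3.38-fold and 2.26-fold against them (adjusted p = 0.000732 and 0.00391). It fell 2.71-fold in metastases against adenomas (adjusted p = 0.00151). Its 2 bright probes gave -1.76 and -1.75 in disseminated cells against adenomas, and a dimmer probe, above background on all 22 arrays, gave 0.33. The dimmer probe gave 0.15 in metastases against adenomas, beside -1.44 for the probe that stood for the gene. In disseminated cells against carcinomas the dimmer probe gave 0.0083 beside -1.18. Tk1, thymidine kinase, fell 2.54-fold in disseminated cells against carcinomas (adjusted p = 0.00273), with carcinomas at -0.97 to -0.23 and disseminated cells at -2.61 to -0.57. Rrm1, the large subunit of ribonucleotide reductase, fell in disseminated cells against adenomas (log2 change -1.08), by under 2-fold without adenoma 3 (-0.95) or disseminated sample 5 (-0.96). Rrm2, its small subunit, fell in carcinomas against adenomas (log2 change -1.06), with an adjusted p of 0.0451. That call was kept in 9 of 28 alternatives, and was lost without any 1 of 9 arrays (adenoma 1, 2, 3 or 5, carcinoma 1, 2, 3, 4 or 6), with log2 changes of -1.12 to -0.93 and adjusted p from 0.0575 to 0.1.

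The 3 G1/S regulators, E2f1, Ccne1 and Ccne2, had no call in any comparison. Ccne2, cyclin E2, was at -0.85, -0.39, -0.35, -0.24 and 0.18 in adenomas and at -1.003, -1.67, -1.05, -1.67 and -0.85 in metastases. It ran from -2.05 to -0.93 (median -1.25) in carcinomas and from -1.05 to -0.22 (median -0.75) in disseminated cells. Carcinomas lay below all adenomas, but the log2 change of -0.98 (adjusted p = 0.00699) missed the 2-fold threshold. E2f1 changed by -0.56 to 0.37 over the 6 comparisons. Of the chromatin assembly genes, Chaf1a had no call and Chaf1b, a subunit of the CAF-1 histone chaperone, fell in all 3 later stages against adenomas. Chaf1b was at -2.20, -2.19, -0.77, -1.01 and -1.39 in adenomas and at -3.57, -3.98, -3.82, -4.29 and -2.97 in metastases. It ran from -3.03 to -2.42 (median -2.96) in carcinomas and from -4.27 to -1.93 (median -3.44) in disseminated cells. Carcinomas and metastases lay below all adenomas, and 1 disseminated sample overlapped them. Chaf1b fell 4.63-fold in metastases (adjusted p = 0.000228), 3.30-fold in disseminated cells (adjusted p = 0.00277) and 2.46-fold in carcinomas (adjusted p = 0.0219). Without adenoma 3 the last was not called (log2 change -1.12, adjusted p = 0.0709). Over the 6 comparisons, 8 of the 42 genes had 3 calls, 7 had 2, 9 had 1 and 18 had none.

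Macrophage genes differed between the groups as well. Of 14 macrophage genes, 12 rose in disseminated cells against adenomas (median log2 change 3.79), 8 in metastases against adenomas (2.21), and 0 in carcinomas against adenomas (0.55). Genes of other cell types moved too: in disseminated cells against adenomas 7 of 9 neutrophil genes (median 4.01) and 6 of 8 endothelial genes (1.43) rose, as did 6 of 6 alveolar macrophage genes (4.04). In that comparison 6 of 9 lung epithelial genes were called in either direction (median 1.87), and 12 mammary epithelial genes had a median of -1.18 with 1 called. In metastases against adenomas 5 of 6 alveolar macrophage genes (median 2.88), 4 of 9 neutrophil genes (1.54) and 4 of 9 lung epithelial genes (0.29) were called in either direction. So were 3 of 7 fibroblast genes (-1.37) and 2 of 11 T and NK cell genes (-0.02). In carcinomas against adenomas 3 of 11 T and NK cell genes (median -0.14, lowest -3.44) and 2 of 7 fibroblast genes (-1.11) were called (all genes: 3.3%). There 1 alveolar macrophage, 1 endothelial and 1 erythroid gene were called as well. In metastases against disseminated cells, 7 of 9 neutrophil genes fell (median -2.48), and 0 of the macrophage genes were called. The part of these cell types in the results was not tested. With the mean of the macrophage genes as a covariate, 0 of the replication genes were called in disseminated cells against adenomas or carcinomas, 11 in metastases against adenomas and 3 in metastases against carcinomas. The macrophage mean of adenomas overlapped neither that of disseminated cells nor that of metastases. In those comparisons the group and the macrophage genes cannot be told apart. Carcinomas overlapped both lung groups in this mean through carcinoma 6 alone. Metastases 2 and 5 had the lowest macrophage means of their group (0.87 and 1.23), and their means over the 42 replication genes were -2.33 and -1.66, within the -2.39 to -1.90 of the others or above it. Carcinoma 6, with a macrophage mean of 5.01, had a replication mean of -1.75, at the median of the carcinomas. Pcna on the same array was at 0.23, and in the metastases with low macrophage means it was at -0.26 and -0.99. Disseminated sample 2 had a macrophage mean of 4.01 and Pcna at -2.49. With the covariate, the log2 change of Pcna in metastases was 1.06 against adenomas (adjusted p = 0.111) and 1.18 against carcinomas (adjusted p = 0.06). What part the macrophage genes have in these results was not tested further.

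**Figure D4:**
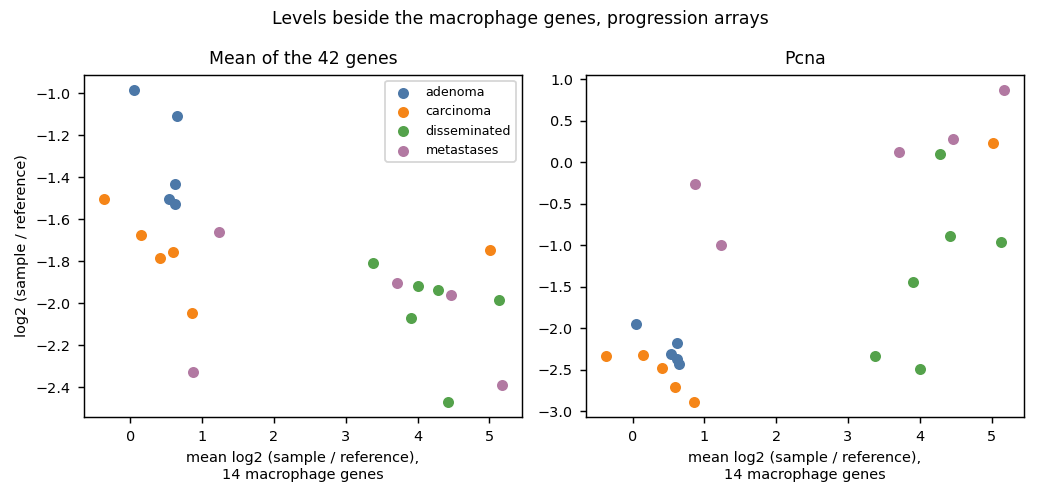
Mean log2 ratio of the 42 replication genes (left) and log2 ratio of Pcna (right) against the mean log2 ratio of 14 macrophage genes, 1 point per array of the progression experiment. Carcinoma 6 stands at a macrophage mean of 5.01, with a replication mean of -1.75 and Pcna at 0.23.

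The other genes of the pathway were read from lists of 35 further replication genes, 29 genes of G1/S control and 30 genes of mitosis. Of the further replication genes, 7 fell and 0 rose in disseminated cells, 9 fell and 1 rose in metastases, and 3 fell and 0 rose in carcinomas, each against adenomas. Over all genes 5.84% fell and 4.65% rose in disseminated cells, 8.51% and 6.08% in metastases, and 2.14% and 1.16% in carcinomas, and these shares are the background for each list here. Timeless, which protects forks, fell by 1.60 on the log2 scale in disseminated cells. Of the mitosis genes, 16 of 30 fell in disseminated cells, 17 in metastases and 7 in carcinomas, with 0 rising, and medians of -1.15, -1.10 and -0.72. Ccnb1, the mitotic cyclin B1, fell by 2.01 on the log2 scale in disseminated cells. Genes of G1/S control went in both directions, with 4 falling and 3 rising in metastases, 3 and 2 in disseminated cells, and 2 and 2 in carcinomas. Cdkn1a, the inhibitor p21, rose in all 3 stages, by 3.18, 1.39 and 2.05 on the log2 scale, and Myc, which drives growth and S phase entry, fell (-2.58, -1.36 and -1.99). From carcinomas to metastases 1 of the 30 mitosis genes fell and 0 rose (all genes: 5.34% fell, 4.74% rose). Of the 35 further replication genes 1 fell and 3 rose, and of the 29 G1/S control genes 1 fell and 2 rose. Top1, which relaxes DNA ahead of the fork, rose by 1.40.

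After chemotherapy no replication gene was called. In residual against untreated tumors, all 42 log2 changes were below 0, as were 51.1% of those of all genes, with a median of -0.31 beside -0.0037 over all genes. The 42 changes ran from -0.75 to -0.01. The change nearest 0 was that of Ccne2, whose probe was above background on 7 of the 16 chemotherapy arrays. With limma, 0 of the 42 were called (all genes: 0.00347% fell, 0.0973% rose), 2 fell with an unadjusted p below 0.05 (all genes: 4.02%), and the test without moderation called 0. The lowest adjusted p was 0.334. Untreated tumor 5 had the highest mean of the 42 genes (-0.69, against -1.91 to -1.45 in the other untreated tumors), and without it the median change was -0.13. Residual tumors ran from -2.13 to -1.41 (median -2.09), so the groups overlapped. The 14 macrophage genes had a median change of -0.69 in the same comparison, with 0 called, and with their mean as a covariate the median of the replication genes was -0.42.

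Rpa1, Tk1 and Rrm1 had the smallest unadjusted p-values of the 42 genes. Rpa1 ran from -2.48 to -1.33 (median -1.94) in untreated tumors and from -2.77 to -2.15 (median -2.61) in residual tumors, and stood at -2.04, -2.10, -1.93 and -1.84 in relapsed tumors. Untreated and residual tumors overlapped, with a log2 change of -0.56 ± 0.18 SE (adjusted p = 0.334), and relapsed tumors lay above all residual tumors, with a log2 change of 0.53 ± 0.20 SE (adjusted p = 0.539). No other member separated relapsed from residual tumors, and 0.695% of all genes lay higher without overlap. Tk1 ran from -2.64 to -0.56 (median -1.45) in untreated and from -2.75 to -1.91 (median -2.25) in residual tumors, and stood at -2.19, -1.58, -0.46 and -1.59 in relapsed tumors. The 3 groups overlapped, and the change in residual tumors was -0.75 (95% interval -1.42 to -0.08, adjusted p = 0.489). Rrm1 ran from -1.94 to 0.34 (median -1.59) in untreated and from -2.78 to -1.31 (median -2.29) in residual tumors, and stood at -2.21, -1.25, -1.48 and -1.47 in relapsed tumors. The highest untreated value was that of tumor 5, and the change in residual tumors was -0.75 (95% interval -1.51 to 0.01, adjusted p = 0.553).

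In relapsed against residual tumors 4 of the 42 changes were below 0 (all genes: 45.3%) and 38 above, with a median of 0.24, and 0 were called (all genes: 0.00347% rose, 0.208% fell), with 4 higher at an unadjusted p below 0.05 (all genes: 4.48%) and 0 called by the test without moderation. Against untreated tumors 28 changes were below 0 (all genes: 46%), with a median of -0.05, and 0 were called by either test (all genes: 0.00347% rose, 0% fell), with 0 at an unadjusted p below 0.05 (all genes: 3.07% lower, 4.59% higher). The comparisons share samples. Untreated tumors had the highest group mean for 28 genes and relapsed tumors for 14, while residual tumors had the lowest for 38. Arrays of these groups lay on 5 slides scanned on 1 day. Untreated tumors 2, 3, 4 and 5 lay alone on slide 1, and residual tumors 3, 4 and 5 alone on slide 3. Only slide 2 held both untreated and residual tumors. Most arrays of these 2 groups were thus on slides without the other, where slide cannot be told apart from group. Within slide 2, 40 of 42 genes were lower in the residual tumors (median -0.47, 2 arrays against 1). Within slide 4, 37 were higher in the relapsed than in the residual tumors (median 0.37, 2 against 1). Within slide 5, 36 were higher in the relapsed than in the untreated tumor (median 0.36, 2 against 1), and with slide as a fixed block the median of relapsed against untreated tumors turned from -0.05 to 0.18. Of the G1/S control genes, Cdkn1a rose in residual tumors (log2 change 1.52, adjusted p = 0.0403), from -0.92 to 0.65 in untreated to 1.24 to 2.29 in residual tumors.

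**Figure D5:**
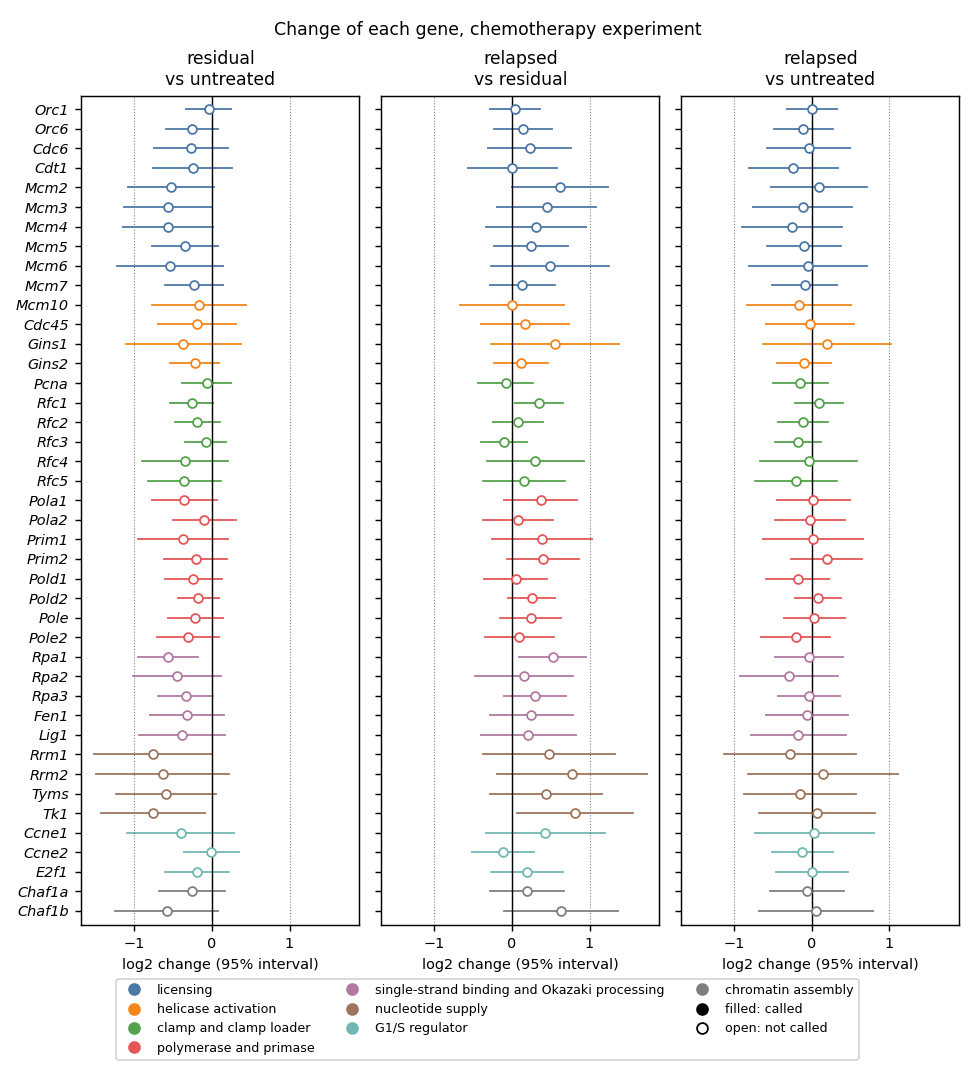
Log2 change of each of the 42 genes with its 95% interval in the 3 comparisons of the chemotherapy experiment, colored by role; no point is filled because none was called, and dotted lines mark a 2-fold change. All 42 points lie below 0 in residual against untreated tumors, and 38 lie above 0 in relapsed against residual tumors.

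Of the 15 genes with several probes, all probes changed in the same direction for 8 in disseminated cells and for 8 in metastases against adenomas, and for 10 in residual against untreated tumors. The largest gap between probes of 1 gene was 2.08 on the log2 scale, for Tyms in disseminated cells against adenomas. For Pole and Rrm1, the other probe was above background on 0 of 22 progression arrays. Probe positions in the files are those of build mm7. The probe that stood for Orc6 lies at chr8:83898581-83898640, that for Mcm10 at chr2:4908072-4908131, that for Tyms at chr5:29093977-29094036, that for Rpa1 at chr11:75382132-75382191 and that for Chaf1b at chr16:93972006-93972066. Whether they lie in coding or untranslated sequence was not analysed here.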

How the data were processed

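RNA of sorted GFP-positive cells was amplified (1 round for the chemotherapy samples, 2 for the progression samples) and hybridized to 38 two-color arrays of 45018 spots. Per the file headers, the deposited scanner files hold spot intensity values read with Agilent Feature Extraction 10.7. The authors also deposited a table of log2 ratios, used here as an alternative. Across 41174 probes, its Pearson r with the values computed here was 0.966 to 0.998 per array. The slope of the deposited on the computed values was 0.94 to 1.09.

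Groups were taken from the sample labels. In R 4.3.3 with limma 3.58.1, background was corrected by normexp (offset 50), dyes by loess within arrays, and arrays by quantiles within each experiment, which were fitted separately. Flagged outlier spots were left out and spots of a probe averaged. The probe with the highest mean intensity stood for a gene, and 22951 probes were named through RefSeq accessions, the rest by the name in the files. All groups of an experiment entered 1 limma fit, with Benjamini-Hochberg adjustment over 28783 genes and a call at adjusted p below 0.05 and at least 2-fold change. On data simulated with independent noise the fit recovered 77 to 97% of log2 changes of 1.5. Smaller changes were not simulated, so their recovery is not known. The number of arrays limits the precision.

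Values per array are given, in progression, for the gene of each role with the most calls (ties by the larger sum of absolute log2 changes) and for genes called against the direction of the others. In chemotherapy they are given for the 3 genes with the smallest unadjusted p in residual against untreated tumors. Fold changes are given for up to 5 genes per direction with the largest change, and up to 3 called genes of the other lists are named per comparison. Mcm3, Mcm4, Mcm7, Tk1 and Lig1 in progression were singled out after their values were seen. Members and lists were chosen with earlier results of these data known. Alternatives covered background, normalization, probe choice, slide and replicate blocks, covariates and leaving out each array.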

Additional observations from a re-analysis of the deposited data

Results flagged for a closer look

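In 3 of 48 gene and group combinations tested, a single array stood far from the rest of its group by Dixon's criterion, which chance meets in about 1 in 20 groups. Rrm1 was at 0.34 in untreated tumor 5, where the next highest untreated value was -1.38. Ccne2 was at -2.05 in carcinoma 6, where the next lowest carcinoma was at -1.27. Pold1 was at -2.90 in carcinoma 6, where the next lowest was at -2.25. The 48 combinations did not cover all 42 genes. Pcna, not among the 3 flagged, was at 0.23 in carcinoma 6, where the carcinoma median was -2.40.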

How the results depend on the processing

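From the scanner's processed signals, 2 were called in carcinomas against adenomas and 2 in metastases against disseminated cells. With Aquantile or no normalization between arrays, 6 were called in disseminated cells and 3 in carcinomas against adenomas, and 2 in metastases against disseminated cells. From the deposited log2 ratios, 9 of the 15 calls in metastases against adenomas were kept. With these ratios 3 were called in metastases against carcinomas and 4 in disseminated cells against adenomas. In carcinomas against adenomas 3 were called, and 2 in metastases against disseminated cells. In this last comparison, 2 were called with the mean of a gene's probes, 2 with only the compared groups in the fit and 0 by the test without moderation. Without the 2-fold threshold, 25 were called in disseminated cells, 15 in carcinomas and 25 in metastases against adenomas. Over all genes, 12.3% were lower and 8.32% higher in disseminated cells, 4.76% and 6.94% in carcinomas, and 15.5% and 13.1% in metastases. In disseminated cells against carcinomas 13 were called without the threshold (all genes: 17.4% lower, 9.17% higher). With the macrophage genes as a covariate, 3 were called in metastases against carcinomas and 0 in disseminated cells against adenomas or carcinomas.

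Both of the following were chosen after seeing the data. Without the dim adenomas 3 and 4, 5 were called in disseminated cells and 0 in carcinomas. With the covariate and without carcinoma 6, 0 were called in metastases against carcinomas, 6 in metastases against adenomas and 0 in disseminated cells against either primary stage, with medians there of -0.41 against adenomas and 0.036 against carcinomas. The causes were not tested.

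Leaving out 1 array at a time gave 5 to 16 calls in disseminated cells, 0 to 6 in carcinomas and 14 to 20 in metastases against adenomas. It gave 5 to 8 in metastases and 4 to 6 in disseminated cells against carcinomas, 2 to 5 in metastases against disseminated cells and 0 after chemotherapy. The medians ran from -0.87 to -0.65, -0.57 to -0.41, -0.89 to -0.69, -0.41 to -0.18, -0.37 to -0.18 and -0.14 to 0.15 in that order, and from -0.39 to -0.13 in residual and -0.14 to 0.09 in relapsed against untreated tumors, and 0.18 to 0.37 in relapsed against residual tumors. Deviations of arrays with the same replicate number correlated between -0.41 and 0.42, so the numbers were not taken as a pairing. With a replicate block, 6 genes were called in metastases against carcinomas, 10, 5 and 15 in disseminated cells, carcinomas and metastases against adenomas, 5 in disseminated cells against carcinomas and 5 in metastases against disseminated cells, with medians of -0.28, -0.76, -0.45, -0.80, -0.29 and 0.01, and 0 after chemotherapy. Directions of single genes were compared across alternatives only for Orc6, Mcm10, Rfc2, Pold1, Rpa1, Tyms, Chaf1b and Pcna in the progression comparisons where they were called, and none turned there.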
